A study of Mus musculus with 8 samples.

Results

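Arrays of mouse retina were divided by 1 quality reading, the log2 difference between the 5′ and the 3′ control probe sets of beta-actin on the same array. The 3 arrays below -1.2 form the low class and the 5 others the high class, out of 8 arrays in all. The low class holds wt/wt rep1, ko/ko rep1 and ko/ko rep3; the high class holds wt/wt rep2, wt/wt rep3, ko/wt rep1, ko/wt rep2 and ko/ko rep2. The series compares wild-type (wt/wt, 3 arrays), heterozygous (ko/wt, 2 arrays) and homozygous (ko/ko, 3 arrays) Nxnl1 null mice at postnatal day 40, all labelled strain BALB/c AJ, with retinas dissected free of pigment epithelium. The submitters counted 9 samples, of which 1 is not analysed here. Nxnl1 is the gene of a photoreceptor protein, related to thioredoxins, that supports the survival of cones. The classes are not the study's groups: they were set from a measured value, wt/wt and ko/ko stand in both, and ko/wt stands in the high class only. No label says whether the arrays came from separate animals. The spread behind each p-value is that among these 8 arrays, and how much of it is technical is not known. Pooling of animals is not stated either: Xist, made by female cells, read 9.71 to 11.86 over the 8 arrays at 1 probe set, while Eif2s3y, a gene of the Y chromosome, read 3.46 and 3.32 on wt/wt rep1 and wt/wt rep2 and 7.07 to 9.14 on the other 6.

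Arrays of this kind are made from complementary RNA that is copied from the poly(A) tail of each messenger RNA towards its 5′ end. Where the RNA is broken or the copying stops early, sequence far from the tail is under-represented, and a probe set that lies there reads low while one next to the tail does not. The 5′ and 3′ control probe sets of actin, Gapdh and a few other transcripts were placed on the array to show this.

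The targeted gene was examined first. At the brighter Nxnl1 probe set the log2 level was 9.22, 8.87 and 8.65 on the wt/wt arrays, 8.65 and 6.75 on the ko/wt arrays and 6.13, 8.76 and 6.13 on the ko/ko arrays, replicates in order. The library labelled ko/ko rep2 thus read like wild type and the one labelled ko/wt rep2 read low, so every statement on genotype rests on labels that these 2 arrays go against. Retinal identity was plain on all arrays: Sag, the rod arrestin, lay between 14.40 and 14.57. Rpe65, the visual-cycle isomerase of the pigment epithelium, lay between 9.16 and 10.48 on arrays labelled free of that tissue. Array medians lay between 6.11 and 6.21, and array-to-array correlations over probe sets between 0.979 and 0.996.

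Actin defines the classes, so its values are a description with no test. The 5′ minus 3′ difference was -1.81 on wt/wt rep1, -1.74 on ko/ko rep1 and -1.26 on ko/ko rep3, and -1.04, -0.80, -0.90, -0.71 and -0.69 on wt/wt rep2, wt/wt rep3, ko/wt rep1, ko/wt rep2 and ko/ko rep2. The array just inside the threshold was ko/ko rep3 and the one just outside was wt/wt rep2, 0.22 apart. Most of the gap came from the 5′ end: the class means differed by -1.32 at the 5′ control probe set, by -0.99 at the middle one and by -0.54 at the 3′ one.

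Gapdh, the glycolytic dehydrogenase, separated the same arrays. Its 5′ minus 3′ difference was -0.47, -0.31 and -0.12 on wt/wt rep1, ko/ko rep1 and ko/ko rep3, and 0.07, 0.06, 0.03, -0.01 and -0.02 on the 5 others, from highest to lowest. The classes did not overlap, and the difference of -0.33 had an exact two-sided permutation p of 0.0179, the smallest that 56 splits of 8 arrays allow (0.0238 after adjustment over 4 control transcripts). Gapdh differed at the 5′ control by -0.32 and at the 3′ control by 0.00, so its gap was one of the 5′ end. Pyruvate carboxylase, a mitochondrial enzyme, ran the same way, at -2.53, -2.65 and -2.30 in the low class against -1.78 to -2.21 in the high class (difference -0.48, exact permutation p = 0.0179). That difference held a 3′ level 0.36 higher in the low class, beside a 5′ level 0.12 lower. Its exact permutation p was 0.0571 without ko/wt rep1 and 0.0952 without ko/ko rep1.

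The transferrin receptor controls went the other way. Their 5′ minus 3′ difference was 0.36 higher in the low class (exact permutation p = 0.0179), with a 5′ level between 3.55 and 3.72 in the low class and between 3.83 and 5.74 in the high class, near the lowest values on the arrays. The exact permutation p became 0.0571 without wt/wt rep2 or ko/wt rep2, and 0.0952 without wt/wt rep1 or ko/ko rep1. All 3 of its control probe sets read lower in the low class, by -0.76 at the 5′ end, -0.86 in the middle and -1.12 at the 3′ end. The brightest ordinary Tfrc probe set differed by -0.01 ± 0.07 (SE), while a dimmer one differed by -1.10 ± 0.26 with no overlap and an limma adjusted p of 0.055. For this gene the 3′ control therefore behaved like the dimmer ordinary probe set and unlike the brightest.

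The 18S ribosomal RNA controls read higher in the low class. Whether ribosomal RNA was carried over into the target was not tested. The 18S 3′ control read 10.43, 10.88 and 9.86 on wt/wt rep1, ko/ko rep1 and ko/ko rep3, against 8.78 to 9.13 on the 5 others, a difference of 1.41. The 5′ and middle 18S controls differed by 1.35 and 1.33, and none of the 3 overlapped between classes (exact permutation p = 0.0179 for each). The 18S 5′ minus 3′ difference did not follow the classes (-0.06, exact permutation p = 0.893). Hybridisation controls, added after labelling, differed by 0.01 between the class means.

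**Figure D1:**
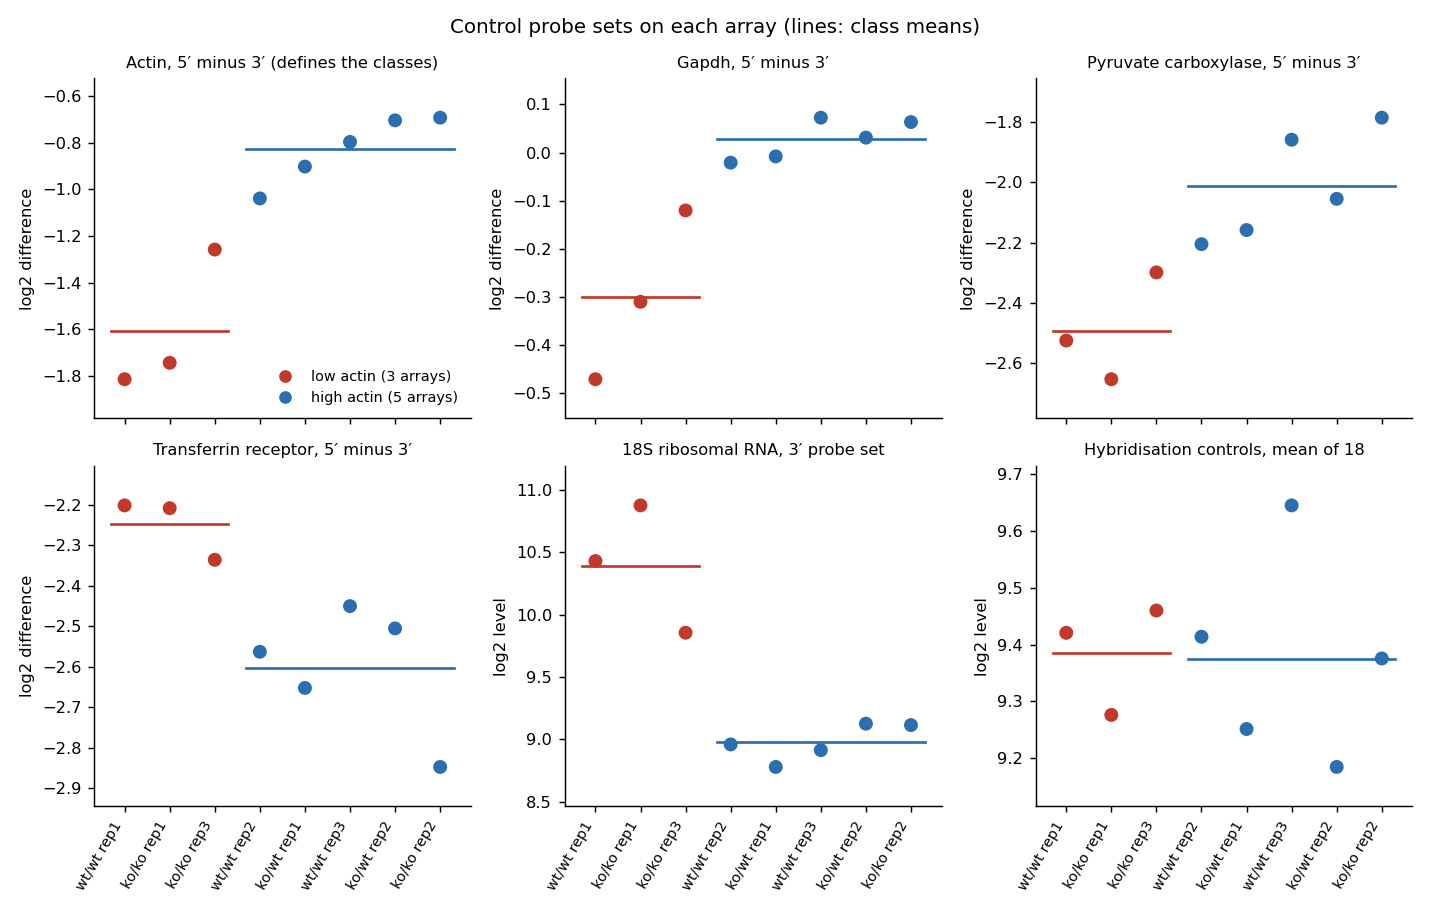
Log2 values of control probe sets on the 8 arrays, ordered by the actin 5′ minus 3′ difference; red points are the low class, blue points the high class and lines the class means. Gapdh and pyruvate carboxylase fall in the low class and transferrin receptor runs the other way. The 18S ribosomal RNA 3′ control reads higher in the low class by 1.41 and the hybridisation controls differ by 0.01.

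Over all 45037 ordinary probe sets, limma called 787 (1.75%) between the classes at an adjusted p below 0.05, 217 higher (0.482%) and 570 lower (1.27%) in the low class. One of the 787 belongs to Actb, the transcript of the rule. The lower calls were the larger: the median was -0.79 for lower and 0.53 for higher calls, and of the 169 calls of at least 1 log2 unit 165 were lower. With array medians made equal the calls were 1485 higher and 924 lower, so the share of higher calls went from 27.6% to 61.6%, and the median of all probe sets from 0.01 to 0.07. At an unadjusted p below 0.05 there were 11106 probe sets (24.7%), 6019 higher (13.4%) and 5087 lower (11.3%), and 6664 (14.8%) had classes that did not overlap.

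The number called turned on single arrays. It was 7555 (16.8%) without ko/ko rep3 and 1306 without wt/wt rep2, the 2 arrays nearest the threshold; 158 without wt/wt rep3; and 4, 9, 14, 16 and 6 without wt/wt rep1, ko/ko rep1, ko/wt rep1, ko/wt rep2 and ko/ko rep2. With the actin difference as a number in place of the classes it was 7002, and 784 of the 787 were among them. With the Gapdh difference as a number, 6183 were called, 764 of the 787 among them. The actin and Gapdh differences both separate the same arrays without overlap, and the same values were fitted again. The shared calls therefore add no separate support. An ordinary test without moderation called 0 (9083 at an unadjusted p below 0.05).

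Taken per gene, higher calls outnumbered lower ones. At the brightest probe set of each of 18193 genes, 134 were called (0.737%), 102 higher (0.561%) and 32 lower (0.176%). At an unadjusted p below 0.05 there were 4058 genes (22.3%), and 2401 genes (13.2%) had classes that did not overlap. Of the 570 lower calls, 474 carried a single gene symbol, and 442 of those (93.2%) were at a dimmer probe set of a gene that has a brighter one; 19 were at the brightest and 13 at the only probe set. Dimmer probe sets are 47.9% of all those with 1 symbol. Of the 200 higher calls with 1 symbol, 98 (49.0%) were at a dimmer probe set, 74 at the brightest and 28 at the only one. With the brightest probe set chosen on the 5 high arrays alone, the share of lower calls at dimmer ones was 91.1%, and with it chosen on the 3 low arrays 93.9%; without ko/ko rep3 it was 83.4% and without wt/wt rep3 94.6%.

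The same genes were thus called lower at 1 place and mostly not called at another. The lower calls at dimmer probe sets came from 419 genes. At the brightest probe set of those genes the median difference was 0.04, with 178 of the 419 below 0. By limma 2 were called lower and 0 higher, and 49 were lower and 78 higher at an unadjusted p below 0.05. Among all genes with several probe sets, the brightest had a median of 0.08, with 31.9% below 0. Of these, 4.87% were lower and 23.2% higher at that p, so the 419 leaned lower than that background. Over the 9010 genes with several probe sets, the dimmer ones differed from the brightest by a median of -0.11, and were below it in 66.7% of genes; among 3769 genes with both above a log2 level of 7 the median was again -0.11. With all probe sets cut into 4 equal parts by mean level, lower calls made up 0.0738%, 2.52%, 4.33% and 3.49% of the dimmer probe sets, from the lowest part to the highest. With genes cut into 5 equal parts by genomic span, they made up 1.44%, 2.33%, 3.0%, 2.92% and 2.71%, from the shortest to the longest. Where these probe sets lie along their transcripts was not analysed here.

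**Figure D2:**
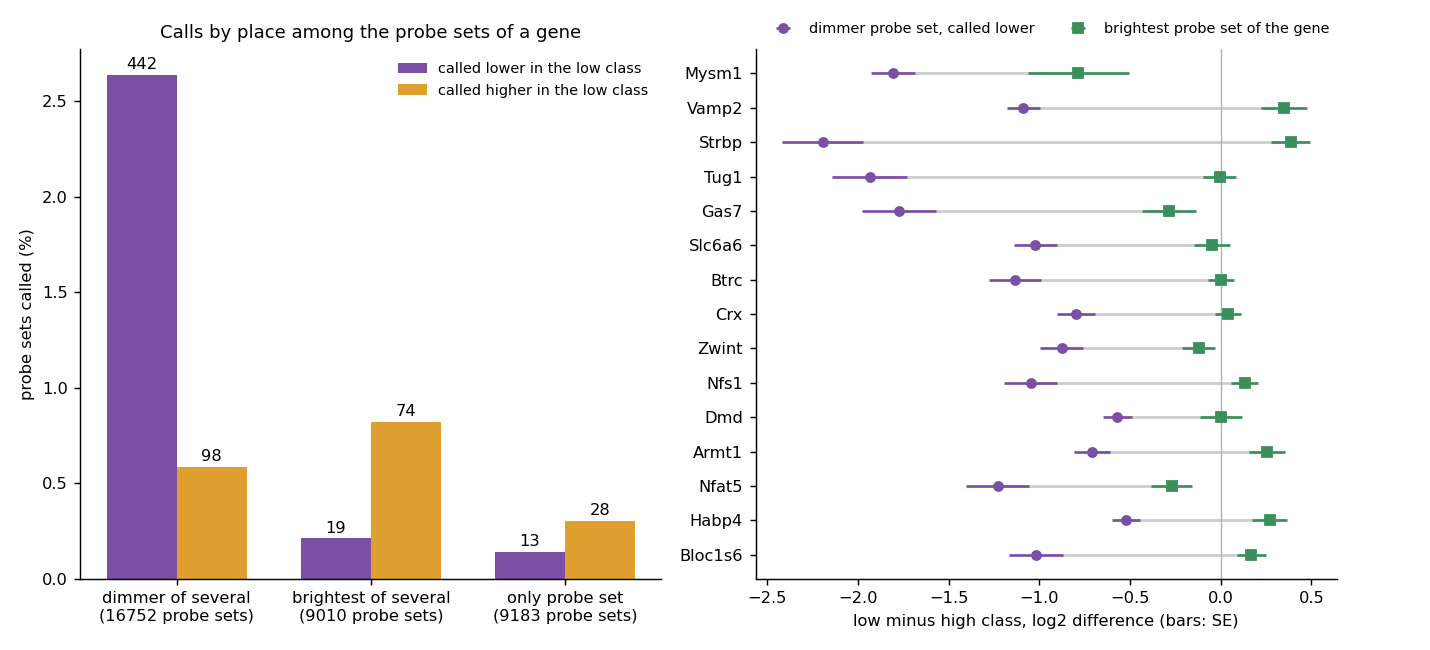
Left, percent of probe sets called lower or higher in the low class, by place among the probe sets of a gene, with the number called above each bar; right, low minus high log2 difference with its SE for the 15 lower calls at dimmer probe sets with the smallest p, beside the brightest probe set of the same gene. Lower calls gather at dimmer probe sets (442), and in 12 of the 15 genes the brightest probe set is within 0.3 of 0.

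The 15 of these probe sets with the smallest p, named after their values were seen, show the pattern on single arrays. Crx is the homeodomain factor that drives photoreceptor genes. Its dimmer probe set read 10.74, 10.82 and 11.01 on wt/wt rep1, ko/ko rep1 and ko/ko rep3, and 11.54, 11.89, 11.59, 11.53 and 11.72 on wt/wt rep2, wt/wt rep3, ko/wt rep1, ko/wt rep2 and ko/ko rep2. All 3 low arrays lay below all 5 high arrays, and the difference was -0.80 ± 0.10 (SE; limma adjusted p = 0.0366). The brightest Crx probe set lay between 12.55 and 12.70 on all 8 arrays and differed by 0.04 ± 0.07.

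Vamp2 encodes the synaptic vesicle protein synaptobrevin. At its dimmer probe set the low class read 8.06, 8.27 and 8.11 and the high class 9.03 to 9.33, a difference of -1.09 ± 0.09 (limma adjusted p = 0.00335). At its brightest probe set the difference was 0.35 ± 0.13, of the opposite sign, with an adjusted p of 0.129. Slc6a6, the taurine transporter that the retina depends on, read 5.58, 5.83 and 6.0 against 6.57 to 6.99 at the dimmer probe set (-1.02 ± 0.12) and differed by -0.05 ± 0.10 at the brightest, which lay near 12.6 on all arrays. Both genes would have been read as lower or as not called depending on the probe set taken.

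Strbp, a double-stranded RNA binding protein, had the widest such gap among genes with several probe sets above a level of 7. One probe set read 6.18, 6.38 and 6.98 in the low class and 8.30, 8.99, 8.40, 8.66 and 9.18 in the high class, a difference of -2.19 ± 0.22 (limma adjusted p = 0.00925). Its brightest probe set differed by 0.39 ± 0.11 (adjusted p = 0.0733). Tug1, a long noncoding RNA needed for photoreceptor development, differed by -1.94 ± 0.21 at a dimmer probe set, with low arrays at 6.48, 6.71 and 7.48 and high arrays at 8.56 to 9.10, and by -0.01 ± 0.09 at the brightest. In both genes ko/ko rep3 was the highest of the 3 low arrays.

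Mysm1, a histone H2A deubiquitinase, had the smallest p of all. It read 5.02, 4.91 and 4.96 in the low class and 6.54 to 7.12 in the high class, a difference of -1.81 ± 0.12 (limma adjusted p = 0.000871). Its brightest probe set differed by -0.79 ± 0.28, mostly through ko/ko rep1 at 6.98 against 8.30 and 8.56 on the other low arrays. Dmd, whose gene encodes dystrophin and its short retinal forms, differed by -0.57 ± 0.08 at the dimmer probe set and by 0.00 ± 0.12 at the brightest. None of the brightest probe sets of the 15 genes was called: their differences ran from -0.79 to 0.39, 9 above 0 and 6 below.

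In 3 genes, probe sets were called in opposite directions. Hif1a, the oxygen-regulated transcription factor, read 11.02, 11.10 and 10.98 in the low class and 10.47 to 10.70 in the high class at its brightest probe set (0.46 ± 0.08, limma adjusted p = 0.0428). At another Hif1a probe set it read 6.84, 6.94 and 7.82 against 8.19, 10.04, 8.48, 9.09 and 9.03 (-1.77 ± 0.37, adjusted p = 0.0475), and at one more the difference was -1.41 ± 0.26. Cnnm4, a magnesium transporter in which mutations cause a cone-rod dystrophy, gave -1.44 ± 0.21 and 0.77 ± 0.12. Ccny, a membrane-bound cyclin, gave 0.63 ± 0.13 and -0.69 ± 0.11. At an unadjusted p below 0.05, 963 of the 5137 genes with any such probe set (18.7%) had them in both directions. Among the 3769 genes with several probe sets above a level of 7, the widest and narrowest differences were over 1 log2 unit apart in 203 (5.39%), with a median distance of 0.31.

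**Figure D3:**
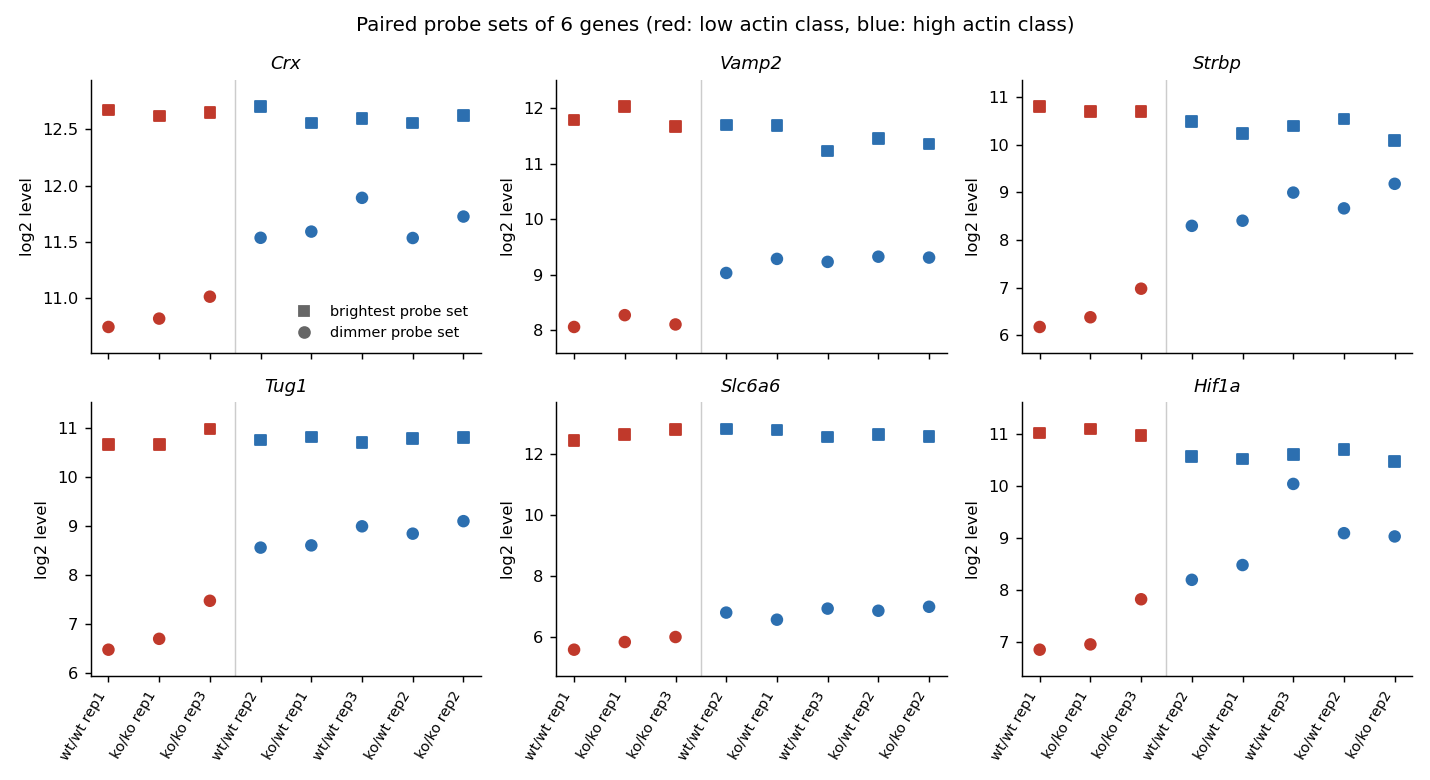
Log2 level on each array of a dimmer probe set (circles) and the brightest probe set (squares) of 6 genes; arrays run from the lowest to the highest actin 5′ minus 3′ difference, with the low class in red. The dimmer probe sets of the 3 low arrays lie below those of all 5 high arrays in each gene, while the brightest Crx probe set stays between 12.55 and 12.70.

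Among genes taken by their brightest probe set, 51 were called higher by at least 0.5 without overlap, and the 15 with the smallest p were examined. Gja1, which encodes connexin 43, the gap junction protein of astrocytes and vessel walls, read 8.21, 8.22 and 8.23 in the low class and 7.64, 6.75, 6.91, 7.39 and 7.19 in the high class. The low arrays agreed within 0.02 of each other, and the difference was 1.04 ± 0.17 (limma adjusted p = 0.0428). Fstl1, a secreted glycoprotein of the follistatin family, read 8.44, 8.37 and 7.97 against 7.38 to 7.73 (0.67 ± 0.12). Nr2e1, the orphan nuclear receptor of neural progenitors, gave 0.60 ± 0.10, and Zic1, a zinc finger factor of the developing nervous system, 0.50 ± 0.09.

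The other higher genes did varied work. Pdp2, a phosphatase that switches on pyruvate dehydrogenase, read 7.86, 8.04 and 7.77 against 6.72 to 7.29 (0.78 ± 0.13). Micu3, a regulator of mitochondrial calcium uptake, gave 0.58 ± 0.11, Nmnat1, the nuclear enzyme of NAD synthesis mutated in a childhood retinal blindness, 0.50 ± 0.09, and Ado, a thiol dioxygenase, 0.52 ± 0.09. Ell2, a transcription elongation factor, gave 0.53 ± 0.09, the formin Fmn1 0.56 ± 0.10 and the zinc finger gene Zfp317 0.56 ± 0.10. Strip2 (0.65), Enpp4 (0.60), Tbck (0.54) and Tmem250-ps (0.98) complete the 15. Their adjusted p-values lay between 0.0422 and 0.0436.

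Lower calls at the brightest probe set were fewer, with 22 genes past the same rule. Ptp4a2, a prenylated tyrosine phosphatase, read 10.21, 9.80 and 10.56 in the low class and 11.06 to 11.43 in the high class (-1.12 ± 0.15, limma adjusted p = 0.0414). Tmlhe, the first enzyme of carnitine synthesis, read 9.16, 8.94 and 9.44 against 10.46, 10.36, 10.25, 9.57 and 10.48 (-1.04 ± 0.20). Here ko/wt rep2 lay close to the low arrays. Evi2a gave -1.03 ± 0.15, Araf, a kinase of the RAF family, -0.76 ± 0.14, Ppp1r10, a nuclear regulator of protein phosphatase 1, -0.77 ± 0.15, Babam2, a member of a BRCA1-linked complex, -0.70 ± 0.12, and Rab5b, a GTPase of early endosomes, -0.53 ± 0.09. The rest were Cnnm4 (above), Insyn2a (-0.58), Zfp444 (-0.56), Zscan29 (-0.69), Thoc2l (-0.70), Gpr137c (-0.70), Gpatch11 (-0.86) and Actb. The Actb value, -0.77, is a reading of the transcript that set the classes and is given without a test.

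Leaving out 1 array left or ended the calls of these genes, Actb aside. All 29 stayed below an adjusted p of 0.05 without wt/wt rep2 or without ko/ko rep3, 8 did without wt/wt rep3, 1 without ko/wt rep2, and 0 without wt/wt rep1, ko/wt rep1, ko/ko rep1 or ko/ko rep2 (limma, adjusted p from 0.0638 to 0.201 in those 4 fits). With genotype in the fit 0 were called (adjusted p from 0.107 to 0.136).

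Class and genotype were then set against each other. Class took 40.3% of the summed squares between arrays and genotype 16.8%, although genotype has 3 levels and class 2; class took the larger share at 56.8% of probe sets. With both in 1 limma fit, class called 11 probe sets (0.0244%; 8921 at an unadjusted p below 0.05), 1 higher and 10 lower. Mysm1, Strbp, Gas7, Vamp2, Tug1 and Slc6a6 were called in that fit too, at adjusted p-values from 0.0350 to 0.0392. In the same fit the ko/ko minus wt/wt difference called 0 probe sets (750, or 1.67%, at an unadjusted p below 0.05) and the ko/wt minus wt/wt difference 0 (718, or 1.59%). With genotype alone both counts were 0 (411, or 0.913%, and 516, or 1.15%). The ko/ko count became 8 without ko/ko rep2 and 4 without wt/wt rep3. The ko/wt count became 1 without wt/wt rep3. The class count became 2614 without ko/ko rep3, 14 without ko/ko rep1, 8 without ko/ko rep2, 3 without wt/wt rep2 and 0 without any 1 of wt/wt rep1, wt/wt rep3, ko/wt rep1 or ko/wt rep2.

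The class difference could be taken inside 2 genotypes. Within wt/wt the low class is wt/wt rep1 alone, and within ko/ko the high class is ko/ko rep2 alone. That ko/ko array read Nxnl1 at 8.76, against 6.13 and 6.13 on ko/ko rep1 and ko/ko rep3. Class and Nxnl1 level therefore cannot be told apart within ko/ko. Within wt/wt 8 probe sets were called (0.0178%; 4303, or 9.55%, at an unadjusted p below 0.05) and within ko/ko 0 (limma; 4298, or 9.54%). The test of whether the 2 differences differ called 0 probe sets (1038, or 2.3%, at an unadjusted p below 0.05; smallest adjusted p 0.0863). For Crx the dimmer probe set differed by -0.97 within wt/wt and by -0.81 within ko/ko, for Vamp2 by -1.07 and -1.12, and for Gja1 by 1.01 and 1.03. For Cnnm4 the brightest probe set differed by -2.05 and -1.19. These genes were picked by the pooled comparison of the same arrays, so their shared sign adds no support. All 787 called probe sets had the same sign in both genotypes for that reason.

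The class label fitted ko/ko rep3 less well than the others. For each array, the 1000 probe sets with the smallest p in a fit without it were taken, and the array was placed between the mean of the high class (0) and that of the low class (1). The array wt/wt rep1 lay at 1.03 and ko/ko rep1 at 1.0, but ko/ko rep3 at 0.30, with 172 of its 1000 probe sets nearer the low mean. In the high class wt/wt rep2 lay at 0.42, ko/wt rep2 at 0.30, ko/wt rep1 at 0.18, ko/ko rep2 at -0.07 and wt/wt rep3 at -0.49. By this measure ko/ko rep3 stood below wt/wt rep2, the array just outside the threshold, and beside ko/wt rep2. Over the 7555 probe sets called without it, ko/ko rep3 was on the low side of the high mean at 6059 (80.2%), at a median position of 0.27.

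**Figure D4:**
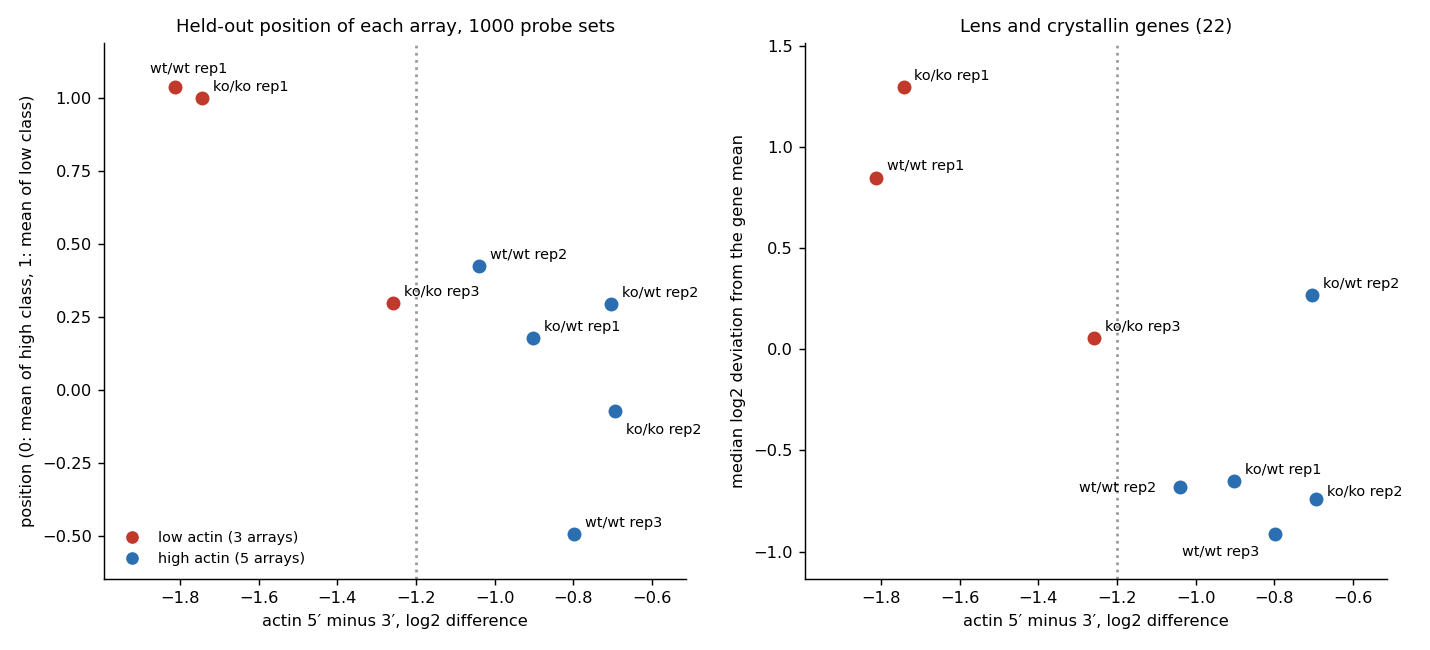
Left, held-out position of each array between the high mean (0) and the low mean (1) against its actin 5′ minus 3′ difference; right, median log2 deviation of 22 lens and crystallin genes from their mean over arrays. The dotted line is the threshold of -1.2: ko/ko rep3 lies at 0.30, near the high arrays, and ko/wt rep2 reads above the other high arrays for the lens genes.

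Lists of genes by function or cell type were then read at 1 probe set per gene, beside a median of 0.06 over all genes. Over all genes 64.7% were above 0, 18.3% were higher and 3.97% lower at an unadjusted p below 0.05, and 0.561% were called higher and 0.176% lower. Of 32 lists 30 had a median above 0, and class took more of the variation than genotype in 24. Under the alternative fits 17 lists kept the sign of their median and 15 did not, the latter with medians between -0.04 and 0.15. The list of lens genes and crystallins stood far from the others. All 22 measured members were above 0, with a median difference of 1.58 (2.02 within wt/wt and 1.33 within ko/ko), 2 called higher and 16 higher at an unadjusted p below 0.05. Crystallins are the soluble proteins of the lens, and a few are made by stressed retina too.

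The lens values did not divide with the classes on every array. Crybb2, a beta crystallin, read 9.05, 10.71 and 9.32 on wt/wt rep1, ko/ko rep1 and ko/ko rep3, and 6.81, 6.80, 6.13, 9.26 and 6.08 on wt/wt rep2, wt/wt rep3, ko/wt rep1, ko/wt rep2 and ko/ko rep2. The high array ko/wt rep2, which read low in Nxnl1, was thus as bright as the low arrays. The difference of 2.68 ± 0.65 had a limma adjusted p of 0.0579. Cryaa, the main alpha crystallin, ran alike, at 9.34, 11.72 and 10.27 against 7.09, 5.77, 6.12, 10.44 and 5.45. Crybb1 (2.04 ± 0.44, adjusted p = 0.0494) and Grifin, a galectin-like lens protein (0.94 ± 0.18, adjusted p = 0.0436), were the 2 calls, and only Grifin had classes that did not overlap. The fibre cell genes Lim2 and Bfsp1 read 4.98 to 5.71 and 4.05 to 5.40. The mean level of the list lay between 6.74 and 7.94 on low arrays and between 5.36 and 7.04 on high arrays; its part in the other differences was not tested. In whole tissue, more cells of a type and more RNA per cell cannot be told apart.

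Glial and immune genes sat mostly above 0 without calls at the brightest probe set. The gliosis and acute phase list had a median of 0.36, 21 of 25 above 0, and 12 higher (48.0%, against 18.3% of all genes) and 0 lower at an unadjusted p below 0.05; 4 of its 29 dimmer probe sets were called higher. Its S100a6, a calcium-binding protein of reactive glia and epithelia, read 6.32, 7.43 and 6.68 against 5.70, 5.39, 5.59, 6.50 and 5.18 (1.14 ± 0.30, limma adjusted p = 0.0633), again with ko/wt rep2 near the low arrays. Müller glia markers had a median of 0.12, with 8 of 25 higher (32.0%) and 2 lower at that p, and 2 of 30 dimmer probe sets called higher. The glial glutamate transporter Slc1a3 led them, at 9.68, 9.36 and 9.55 against 8.64 to 9.19 (0.59 ± 0.13, adjusted p = 0.0505). Microglia and macrophage markers had a median of 0.14 (4 of 20 higher, 20.0%), interferon and antigen presentation genes 0.10 (4 of 27, 14.8%), vascular genes 0.05 (2 of 23, 8.70%) and pigment epithelium and choroid genes 0.16 (5 of 21, 23.8%), against 18.3% of all genes, with 0 lower in these 4 lists. With the Nxnl1 level in the fit the median of interferon and antigen presentation genes was -0.02. In that list class took a median of 6.63% of the variation and genotype 32.0%. Blood genes had a median of 0.01 and 0 of 10 at that p. Genes of cornea, iris and ciliary body had a median of 0.14 (2 of 19 higher, 2 lower) and 1 call, Zic1.

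Heat shock proteins and their cochaperones had a median of 0.16, with 45 of 56 above 0 (80.4%, against 64.7% of all genes), 19 higher (33.9%, against 18.3%) and 0 lower at an unadjusted p below 0.05, and 0 called. Their 94 dimmer probe sets went the other way, with a median of -0.11, 31 lower and 12 higher at that p and 4 called lower. Hspa2, a heat shock 70 family member, read 5.98, 6.17 and 5.79 against 4.82 to 5.59 (0.69 ± 0.16, limma adjusted p = 0.0524). Hsph1, a nucleotide exchange factor of the same machinery, gave 0.42 ± 0.11 and Dnajb2 0.44 ± 0.10, both without overlap. Immediate early genes, which are switched on within minutes of a stimulus, had a median of 0.06, with 11 of 40 higher (27.5%) and 2 lower at that p. They were mixed: Klf6 gave 0.60 ± 0.14 and Atf3 0.59 ± 0.17, while Btg2 gave -0.61 ± 0.17.

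Splicing factors of the SR and hnRNP families made the list furthest below 0. Their median was -0.11, with 24 of 65 above 0, and 19 lower and 4 higher at an unadjusted p below 0.05, against 3.97% of all genes lower and 18.3% higher at that p. Srsf5 read 11.85, 11.76 and 12.59 against 12.54 to 13.14 (-0.79 ± 0.19, limma adjusted p = 0.0568), so the classes overlapped through ko/ko rep3 and ko/wt rep2. Srsf6 gave -0.64 ± 0.17 without overlap and Rbm39 -0.69 ± 0.21. At their 174 dimmer probe sets the median was -0.23, with 10 called lower and 80 lower at an unadjusted p below 0.05.

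Long noncoding RNAs showed the same gap between probe sets. At 1 probe set per gene the 38 had a median of 0.01, with 5 higher and 5 lower at an unadjusted p below 0.05. At 60 dimmer probe sets the median was -0.23 with 6 called lower, against -0.03 and 2.64% over all dimmer probe sets. Malat1, an abundant RNA of nuclear speckles, read 10.89, 10.74 and 11.55 against 11.26 to 11.92 (-0.63 ± 0.19, limma adjusted p = 0.0877). Rian, an imprinted RNA that hosts small nucleolar RNAs, gave -0.91 ± 0.24, and Snhg14, another such host, 0.40 ± 0.10.

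Housekeeping complexes had medians between 0.01 and 0.12. Cytosolic ribosomal proteins had a median of 0.08 (8 of 46 higher and 1 lower at an unadjusted p below 0.05), oxidative phosphorylation subunits 0.12 (13 of 59 and 2), proteasome subunits 0.01 (7 of 37 and 1; median -0.03 with repeated quantile normalization), translation factors 0.06 (9 of 46 and 2) and glycolysis 0.06 (5 of 24 and 3), with 0 called in any of them (limma). The shares higher were 17.4% for ribosomal proteins, 18.9% for the proteasome, 19.6% for translation factors and 20.8% for glycolysis, near the 18.3% of all genes. The medians of cytosolic ribosomal proteins and oxidative phosphorylation subunits were 0.22 and 0.26 within wt/wt, where the low class is 1 array. Within ko/ko, where the high class is 1 array, they were 0.01 and 0.01. The difference between genotypes was not tested for a list. Mitochondrial ribosomal proteins had a median of 0.11 and 2 calls: Mrpl1 higher (0.39 ± 0.07) and Mrpl50 lower (-0.61 ± 0.13). RNA decay genes had a median of 0.05 (8 of 54 higher, 3 lower), and histone genes 0.01 (3 of 20 higher, 1 lower).

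Neuronal lists lay on both sides of the median of all genes. Rod phototransduction genes had a median of -0.04 (0.02 with equal array medians), with 7 of 25 above 0; Grk1, the rhodopsin kinase, gave -0.52 ± 0.16 and Gucy2e, a photoreceptor guanylate cyclase, -0.71 ± 0.23, and 0 were higher and 2 lower at an unadjusted p below 0.05. Cone genes had a median of 0.07 (2 of 17 higher, 2 lower) and bipolar genes 0.13 (4 of 19 higher, 2 lower). Amacrine and horizontal cell genes had a median of 0.21, with 8 of 27 higher (29.6%) and 3 lower (11.1%), and ganglion cell genes 0.14, with 7 of 23 higher (30.4%) and 3 lower (13.0%). Both shares of both lists lay above the 18.3% higher and 3.97% lower of all genes. Thy1, a surface protein of ganglion cells, read 10.54, 10.82 and 9.83 against 9.71 to 10.05 (0.48 ± 0.18), and so stood out on 2 of the 3 low arrays. Ion channel and receptor subunits had a median of 0.15 (12 of 47 higher, 5 lower) and 1 call, Kcnma1, the large-conductance potassium channel, at 8.80, 8.36 and 9.35 against 9.47 to 9.93 (-0.89 ± 0.19, limma adjusted p = 0.0487).

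Zinc finger (Zfp) genes were the largest list, with 10 of 329 called higher (3.04%, against 0.561% of all genes) and 1 lower. At an unadjusted p below 0.05, 103 were higher (31.3%, against 18.3%) and 13 lower (3.95%, against 3.97%). Their median was 0.12, and their mean level lay between 7.40 and 7.45 on the low arrays and between 7.26 and 7.34 on the high arrays, without overlap. All genes divided in the same way. Their median deviation from the gene mean was 0.037, 0.078 and -0.006 on wt/wt rep1, ko/ko rep1 and ko/ko rep3. On the high arrays it lay between -0.040 and -0.015. Zfp367 read 8.47, 8.50 and 8.25 against 7.76 to 8.02 (0.49 ± 0.09), and Zfp444 was the 1 lower call. At their 283 dimmer probe sets the median was -0.04, with 9 called lower and 2 higher. This was close to all dimmer probe sets, with a median of -0.03, 442 called lower (2.64%) and 98 higher.

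Length and cell structure lists were close to the median of all genes. Very long messenger RNAs had a median of 0.01, with 13 of 101 higher and 4 lower at an unadjusted p below 0.05; at their 183 dimmer probe sets it was -0.09, with 39 lower and 11 higher. Ciliary and centrosomal genes had a median of 0.02 (12 of 80 higher, 8 lower) and 1 call, Bbs10, a chaperonin-like protein mutated in Bardet-Biedl syndrome (0.36 ± 0.08). Chromatin genes had a median of 0.06 (10 of 64 higher, 4 lower) and clock genes 0.01 (3 of 21 each way); Rorb, a nuclear receptor of the clock and of photoreceptors, read 10.60, 9.35 and 10.89 against 10.98 to 11.82 (-1.0 ± 0.31). Over all genes cut by genomic span the median went from 0.03 in the shortest of 5 equal parts to 0.08 in the longest.

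**Figure D5:**
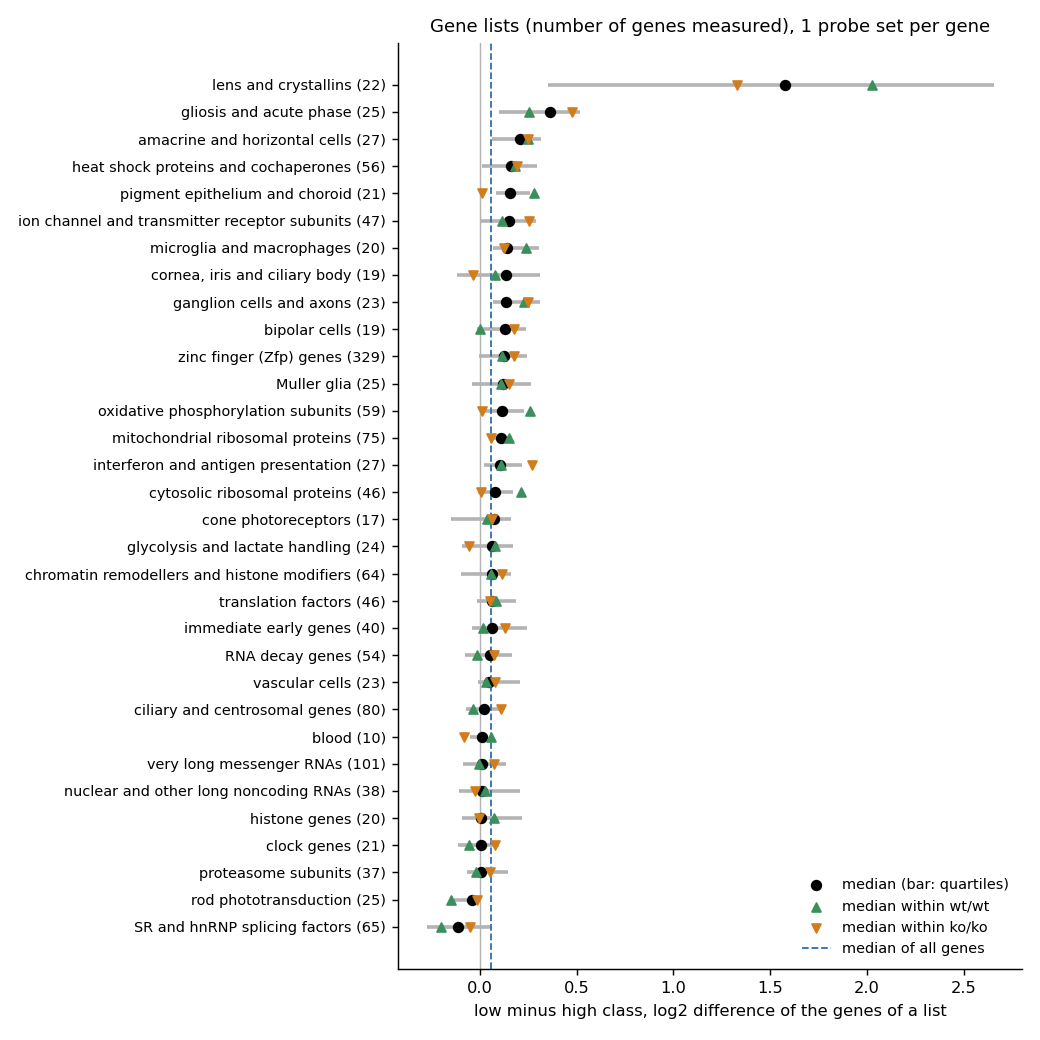
Median low minus high log2 difference of each gene list at 1 probe set per gene, with quartiles as bars, the medians within wt/wt and within ko/ko as triangles and the median of all genes (0.06) as a dashed line. The lens and crystallin list lies at 1.58, the gliosis list at 0.36, and the SR and hnRNP list lowest at -0.11.

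Probe sets without a gene name leaned the other way in their median, though not in their share of calls. The 9160 with no symbol had a median of -0.04, with 5744 below 0 (62.7%, against 48.4% of all probe sets). Of them 86 were called lower (0.939%, against 1.27% of all) and 16 higher (0.175%, against 0.482%). In the highest of 4 equal parts by level their median was -0.10, against 0.08 for probe sets of genes with established names. Probe sets whose identifier ends in _a_at, which read several transcripts of a gene, held 154 lower calls among 4426 (3.48%), against 367 among 36082 plain ones. Those ending in _x_at, which can bind other sequences, held 34 higher calls among 2441 (1.39%, against 0.482% of all) and 10 lower (0.410%, against 1.27%).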

How the data were processed

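Retinal RNA was read on 8 expression arrays of 1 colour. The deposited values are log2 levels per probe set from RMA, per the submitters' processing notes, with settings not given in the sources used here; no scanner files were used. Of 45101 probe sets, 64 controls were set aside and 45037 tested without a filter, with limma 3.58.1 in R 4.3.3 and Benjamini-Hochberg adjustment over all 45037, low minus high class, calls at an adjusted p below 0.05. Single control values had exact two-sided permutation tests. A supplied platform table gave 34945 probe sets 1 gene symbol, 932 several and 9160 none, with 34741 symbols updated from RefSeq (GRCm38.p6), which also gave genomic spans; these replaced the coding lengths of the plan. Named genes were called, at least 0.5 apart and without overlap, by smallest p at the brightest probe set, up to 15 each way. The classes, the 32 lists (1481 genes) and the tests were chosen with earlier results of these data known. The alternatives were other scalings, filters, thresholds, fits and arrays left out. On simulated data, 93% of 100 changes of 1 log2 unit and 100% of 100 of 2 were called, with 18 false among 211 calls. The simulated noise was independent between probe sets, so these rates leave out array effects that many probe sets share. Array number limits the precision.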

Additional observations from a re-analysis of the deposited data

Results flagged for a closer look

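In all, 3 readings within the high class stood far from the other 4 arrays.
The transferrin receptor 5′ control read 5.74 and its 3′ control 8.19 on wt/wt rep3, and Tmlhe, the first enzyme of carnitine synthesis, read 9.57 on ko/wt rep2. In each case the gap to the nearest array was more than Dixon's limit for 5 samples allows. There were 45 readings examined, and chance flags a share of about 0.05 of such groups.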

How the results depend on the processing

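The 787 class calls became 11 with genotype in the fit, 435 with the Nxnl1 level in it (288 shared), 2409 with equal array medians, 6499 with array weights (787 shared), 7002 and 6183 with the actin or Gapdh difference as a number, 6986 with the threshold at -1.5 and 6825 without the arrays between -1.5 and -1.0 (chosen after seeing the data). They became 0 with the threshold at -1.0 (8323 at an unadjusted p below 0.05), 0 without both arrays whose Nxnl1 goes against the label (8120) and 0 by an ordinary test (9083); leaving out 1 array gave 4 to 7555. The cause was not tested. They stayed between 528 and 1121 with repeated quantile normalization, a filter on level, an intensity trend, a robust prior or a minimum fold of 1.5. With the replicate block, 1233 were called (317 higher, 916 lower, 486 shared). Same-numbered arrays had deviations from their genotype mean correlated from -0.248 to 0.616. With so few arrays per genotype, these correlations cannot tell whether a replicate number stands for a batch.

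With genotype and class in 1 fit, leaving out 1 array gave 0 to 2614 class calls, 0 to 8 for ko/ko minus wt/wt and 0 to 1 for ko/wt minus wt/wt; class calls were 0 without both arrays whose Nxnl1 goes against the label and 95 with array weights. The interaction called 6 with an intensity trend. Leaving out 1 array, the 5′ minus 3′ difference ran from -0.418 to -0.243 for Gapdh, 0.295 to 0.399 for transferrin receptor, -0.578 to -0.400 for pyruvate carboxylase and -0.434 to 0.283 for 18S (0.0648 without ko/wt rep1, 0.0764 without ko/ko rep2).

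The lists with a median above 0 numbered 25 to 31 of 32, and 21 with each gene at the mean of its probe sets. Of 831 list medians recomputed, 48 changed sign, in 15 lists, at values between -0.083 and 0.021. Ciliary and centrosomal genes, with a member called higher, did so at -0.00053 with actin as a number, -0.027 with the threshold at -1.5, -0.0012 with array weights, -0.013 with Gapdh as a number, -0.012 without the arrays between -1.5 and -1.0, -0.034 with genes at the mean of their probe sets and -0.011 without ko/ko rep3, the lowest when 1 array was left out (highest 0.0488). Of 723 recomputed differences of named genes, Actb aside, 324 lost their call. Coding length was not run.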
